A study of Rattus norvegicus with 8 samples.

Results

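The adipocyte genes described here were chosen by name as the genes of the list adiponectin (Adipoq), fatty acid binding protein 4 (Fabp4), perilipin 1 (Plin1), leptin (Lep), complement factor D (Cfd), Cidec, Pparg, lipoprotein lipase (Lpl) and hormone-sensitive lipase (Lipe), whatever their values. Of these 9 genes, 8 were matched to a probe through the transcript accession of the probe, with 9 probes in all, and no probe was matched to Plin1. The probe of Lep was well above background in only 2 of the 16 rats and was not tested. The other 7 genes were well above background in 16 of 16 rats and were tested among 19901 genes. The list was drawn up with earlier results of these data known, and Adipoq, Fabp4 and Cfd are in the study's own list of genes lower after cocoa, which came from these same arrays, so their direction in the cocoa group is no independent evidence.

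The expression data are from pieces of mid colon, 1 from each of 16 female Wistar rats (aged 6 weeks by the labels), with 4 rats in each of 4 diet groups. REF rats were fed the reference diet, C10 rats a diet containing cocoa, CF rats a diet with cocoa fiber and I rats a diet with inulin, a soluble fiber. Every rat lay on 1 of 8 two-colour arrays beside 1 rat of another diet, and each diet had 2 rats in each dye. C10 rats lay only on arrays 1 to 4 and I rats only on arrays 5 to 8. By the labels each rat lay on a single array, whereas the methods speak of dye swaps for every sample; the p-values are based on the arrays as labelled and measure the spread between rats.

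White adipocytes store triglyceride in a lipid droplet and release it as fatty acids. Pparg is the transcription factor that drives their formation, Lpl frees fatty acids from circulating lipoproteins, Fabp4 carries fatty acids inside the cell, Cidec and Plin1 coat the droplet and Lipe hydrolyses its fat, while Adipoq, Lep and Cfd (adipsin) are secreted. Adipoq, Lep and Plin1 are largely restricted to adipocytes, whereas Pparg is also abundant in the epithelium of the colon, and Lpl, Fabp4, Cidec and Lipe are made by other cells as well. The colon carries fat on its outer side at the mesentery, and a piece of the whole wall may hold some of it. In bulk tissue, fewer cells of a type and less RNA per cell cannot be told apart.

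The RefSeq promoter sequences of the GRCr8 build are shown for a pair of secreted members that moved together from rat to rat (Adipoq and Cfd) and for the 2 genes outside the list whose signals were most like that of Adipoq (Rbp4 and Thrsp). Each run is the 250 bases before the gene start, 5′ to 3′ on the strand of the gene, at chr11:91240170-91240419 (minus strand) for Adipoq, chr7:10465497-10465746 (minus strand) for Cfd, chr1:245313552-245313801 (minus strand) for Rbp4 and chr1:161138965-161139214 (minus strand) for Thrsp. Capitals mark CCAAT (or ATTGG, its other strand) and TATAAA.
Adipoq: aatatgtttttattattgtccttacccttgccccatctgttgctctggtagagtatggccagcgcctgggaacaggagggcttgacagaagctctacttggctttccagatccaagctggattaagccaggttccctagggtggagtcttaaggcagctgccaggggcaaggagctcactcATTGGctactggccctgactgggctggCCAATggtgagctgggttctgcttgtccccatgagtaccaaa
Cfd: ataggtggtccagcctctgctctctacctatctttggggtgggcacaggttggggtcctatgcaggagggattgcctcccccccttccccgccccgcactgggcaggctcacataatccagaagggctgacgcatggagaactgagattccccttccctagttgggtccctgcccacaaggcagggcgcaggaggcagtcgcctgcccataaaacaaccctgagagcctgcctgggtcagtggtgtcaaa
Rbp4: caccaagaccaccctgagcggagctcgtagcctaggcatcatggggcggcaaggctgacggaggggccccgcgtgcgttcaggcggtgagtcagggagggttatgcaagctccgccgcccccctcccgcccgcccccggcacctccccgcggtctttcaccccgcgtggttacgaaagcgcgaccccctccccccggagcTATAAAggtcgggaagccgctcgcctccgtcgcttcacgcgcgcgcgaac
Thrsp: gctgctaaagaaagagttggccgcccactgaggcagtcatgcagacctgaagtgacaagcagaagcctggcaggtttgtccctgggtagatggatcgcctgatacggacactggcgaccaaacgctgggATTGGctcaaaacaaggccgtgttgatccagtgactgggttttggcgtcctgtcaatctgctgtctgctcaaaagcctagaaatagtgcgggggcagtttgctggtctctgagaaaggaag

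Of the 9 members, 6 had a promoter in this table. The letters CCAAT, on either strand, were present before Adipoq (2 times), Lep, Plin1 and 1 of the 2 starts of Pparg, which is 4 of 6 members, and in 34.0 % of the 33469 promoters of the table. TATAAA was present before Rbp4, before no member and in 12.9 % of promoters. AGGTCA, the half-site bound by nuclear receptors such as Pparg, was found in 14.1 % of promoters and in no window of a member. TTGCGCAA, a form of the C/EBP element, was found before Lep and in 0.14 % of promoters. Each was searched on both strands. Of the 4 genes shown, Adipoq and Thrsp held CCAAT, Rbp4 held TATAAA and Cfd held none of these letters, and such matches are descriptions of sequence only.

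The secreted members varied widely between rats. The normalized log2 signal of Adipoq was 9.26, 7.87, 10.69 and 8.77 in REF rats 1 to 4, 6.74, 7.09, 7.57 and 9.07 in C10 rats, 10.57, 9.22, 9.51 and 7.99 in CF rats, and 8.53, 9.70, 10.06 and 7.55 in I rats. Thus 3 of the 4 C10 rats were below every REF rat, but C10 rat 4 lay among the REF rats and the groups overlapped. The signals of the 16 rats spanned 15.6-fold, and the SD within diets was 1.15, which only 0.513 % of all genes exceeded (the median over genes was 0.16). The mean was 7.62 ± 1.03 in C10 (SD, n = 4) and 9.15 ± 1.18 in REF (SD, n = 4). With the dye and the shared array in the fit, Adipoq was lower in C10 than in REF by a log2 fold change of -1.74 (SE 0.62, 3.33-fold), which did not pass the test across all genes (limma, adjusted p = 0.161).

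Cfd, the protease adipsin, had log2 signals of 11.18, 10.39, 12.38 and 11.38 in REF rats 1 to 4, 9.31, 10.37, 10.51 and 11.20 in C10 rats, 11.77, 11.49, 11.60 and 10.60 in CF rats, and 11.36, 12.02, 11.67 and 10.69 in I rats. C10 rat 1 was the lowest of the 16 and REF rat 3 the highest, as for Adipoq. The C10 and REF rats overlapped, and the fitted log2 fold change was -1.10 (SE 0.38; limma, adjusted p = 0.148). Lep, the third secreted member, gave no measurable difference. Its log2 signals lay between 6.05 and 6.36, against a lowest signal well above background of 5.83 to 6.21 per rat, and only C10 rat 4 and CF rat 2 were well above background.

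The genes that take up and carry fatty acids separated C10 from REF without overlap. Fabp4 had log2 signals of 10.03, 9.14, 10.56 and 9.38 in REF rats 1 to 4, 8.53, 8.51, 8.98 and 9.11 in C10 rats, 9.998, 9.58, 9.96 and 8.88 in CF rats, and 9.12, 10.01, 9.86 and 8.97 in I rats. Every C10 rat was below every REF rat, although C10 rat 4 and REF rat 2 differed little. The log2 fold change was -1.07 (SE 0.27, 2.1-fold), with limma adjusted p = 0.0628 over all genes and exact two-sided permutation p = 0.0286, the smallest that 4 rats against 4 allow. Lpl was at 7.43, 7.18, 7.73 and 7.58 in REF rats 1 to 4, 6.99, 6.77, 7.05 and 6.84 in C10 rats, 7.98, 7.43, 7.20 and 7.01 in CF rats, and 7.31, 7.29, 7.44 and 6.97 in I rats. The C10 and REF rats did not overlap here either. The log2 fold change of Lpl was -0.61 (SE 0.15, 1.53-fold; limma, adjusted p = 0.0637), with the same exact permutation p = 0.0286. It depended on the background correction, at -0.99 with no offset (adjusted p = 0.0612) and -1.20 from the processed signals (0.056). Thus 2 of the 7 members had C10 rats that were all below the REF rats, as had 2.01 % of all genes tested. Exact two-sided permutation p was 0.114 for Adipoq, 0.171 for Cfd, 0.114 for Pparg and 0.571 for Lipe. For Cidec, the exact permutation test did not reach 0.05 either. These exact permutation values were not adjusted over genes. They treat the rats as separate, although C10 rats 1 and 2 share arrays with REF rats 1 and 2.

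The droplet genes and the transcription factor differed less between C10 and REF, and the rats of these diets overlapped. Cidec was at 7.64, 7.35, 7.46 and 7.83 in REF rats 1 to 4, 7.58, 8.53, 7.22 and 7.04 in C10 rats, 7.43, 7.59, 7.04 and 7.02 in CF rats, and 6.96, 7.15, 6.91 and 7.38 in I rats. Its highest rat was C10 rat 2, in which Adipoq was the second lowest of all, and the C10 against REF difference was 0.11 (SE 0.23; limma, adjusted p = 0.852). Without C10 rat 2 the difference was -0.31 (SE 0.16; limma, adjusted p = 0.362). Lipe ranged only from 6.43 to 6.88 over the 16 rats, with a C10 against REF difference of 0.05 (SE 0.08). These signals lie close above the lowest signal well above background (5.83 to 6.21 per rat), where the offset narrows differences. The second, dimmer probe of Lipe gave -0.01 (SE 0.08) and correlated with the first at r = 0.67. Pparg was at 11.60, 11.53, 11.29 and 12.00 in REF rats 1 to 4, 11.48, 11.35, 11.23 and 10.73 in C10 rats, 11.13, 12.07, 10.59 and 11.11 in CF rats, and 10.87, 12.24, 11.47 and 11.72 in I rats. It was thus highest in I rat 2 and lowest in CF rat 3, and the C10 against REF difference was -0.43 (SE 0.27; limma, adjusted p = 0.424).

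**Figure D1:**
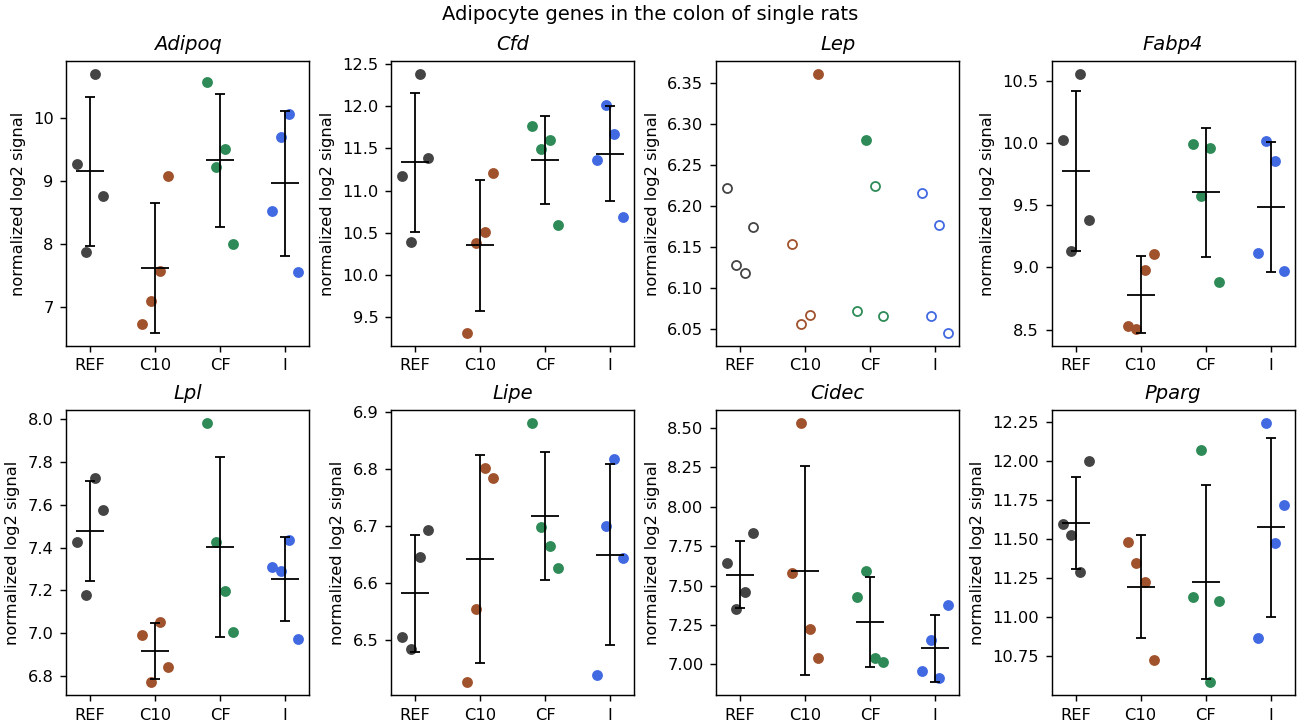
Normalized log2 signal of each adipocyte gene with a probe, 1 point per rat in the order of the rat numbers within each diet (4 rats per diet). Open points were not well above background, and bars show the mean ± SD of a diet (not drawn for Lep). The C10 rats lie below the REF rats without overlap for Fabp4 and Lpl, while C10 rat 4 at 9.07 overlaps the REF rats for Adipoq; each panel has its own scale.

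Counting all members, 5 of the 7 tested were lower and 2 higher in C10 than in REF, with a median log2 fold change of -0.61 against 0.01 over all genes, of which 46.1 % were lower. Members called by limma (adjusted p below 0.05 and at least 2-fold) numbered 0 of 7, as against 0.226 % of all genes. At an unadjusted limma p below 0.05, 4 members were lower (Adipoq, Cfd, Fabp4 and Lpl), as were 9.0 % of all genes. Of these 4 members, only Fabp4 and Lpl were also below 0.05 in the exact permutation test. The log-ratio model within arrays called 0 members and 0 genes. C10 rat 1 stood apart from the other 15 rats with the lowest level of smooth muscle, mesothelial and macrophage genes. Without it, the log2 fold change against REF was -1.37 for Adipoq (adjusted p = 0.397), -0.75 for Cfd (0.422), -1.03 for Fabp4 (0.142) and -0.66 for Lpl (0.105), each by limma. Without C10 rat 4, on the other hand, Fabp4 was called (log2 fold change -1.24, limma adjusted p = 0.0453) and Adipoq was at -2.19 (0.0871).

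In the diets with fiber alone, no difference of a member from REF passed the test. In CF against REF, the log2 fold changes were -0.24 for Adipoq (SE 0.68), -0.33 for Cfd (SE 0.41), -0.33 for Fabp4 (SE 0.29) and -0.11 for Lpl (SE 0.17), with a median over the 7 members of -0.24 against 0.01 over all genes. In I against REF, they were -0.40 for Adipoq (SE 0.62), -0.15 for Cfd (SE 0.38), -0.37 for Fabp4 (SE 0.27) and -0.21 for Lpl (SE 0.15), with a median of -0.21. Cidec, Lipe and Pparg differed from REF by -0.06, 0.10 and -0.26 in CF and by -0.31, 0.05 and 0.11 in I. These values come from the fit with dye and array, and the plain means of the 4 rats ran the other way for Adipoq in CF (9.32 against 9.15 in REF), for Cfd in CF and I (11.36 and 11.44 against 11.33) and for Pparg in I (11.58 against 11.60), so no direction can be given for these. No member was called by limma in either comparison and none had an unadjusted p below 0.05, where 7.16 % of all genes had one in CF against REF and 6.4 % in I against REF; no gene at all was called in these comparisons (0.0 %). The sign of several of these small differences changed when 1 rat was left out.

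Set directly against the fiber diets, C10 was again lower in the same genes, though these comparisons share the C10 rats with the comparison against REF. Against CF, the log2 fold change was -1.50 for Adipoq (SE 0.62, adjusted p = 0.287), -0.77 for Cfd (SE 0.38, 0.375), -0.74 for Fabp4 (SE 0.27, 0.224) and -0.50 for Lpl (SE 0.15, 0.16), by limma. Against I, it was -1.34 for Adipoq (SE 0.68, 0.433), -0.95 for Cfd (SE 0.41, 0.35), -0.70 for Fabp4 (SE 0.29, 0.33) and -0.40 for Lpl (SE 0.17, 0.337). Leaving out 1 rat moved the values against CF to between -2.24 and -0.73 for Adipoq, -1.20 and -0.39 for Cfd, -1.004 and -0.44 for Fabp4 and -0.63 and -0.26 for Lpl, and those against I to between -1.93 and -0.87, -1.30 and -0.67, -0.92 and -0.47, and -0.52 and -0.31 in the same order. Cidec, Lipe and Pparg differed by 0.16, -0.06 and -0.17 against CF and by 0.41, -0.001 and -0.54 against I. Members called numbered 0 of 7 in both, as against 0.121 % of all genes in C10 against CF and 0.171 % in C10 against I, and 3 members had an unadjusted p below 0.05 in each, as had 14.4 % and 12.9 % of all genes. In CF against I, 0 of 7 members and 0.0 % of genes were called by limma, with 0 members and 3.31 % of genes at an unadjusted p below 0.05, and the median of the members was 0.05.

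**Figure D2:**
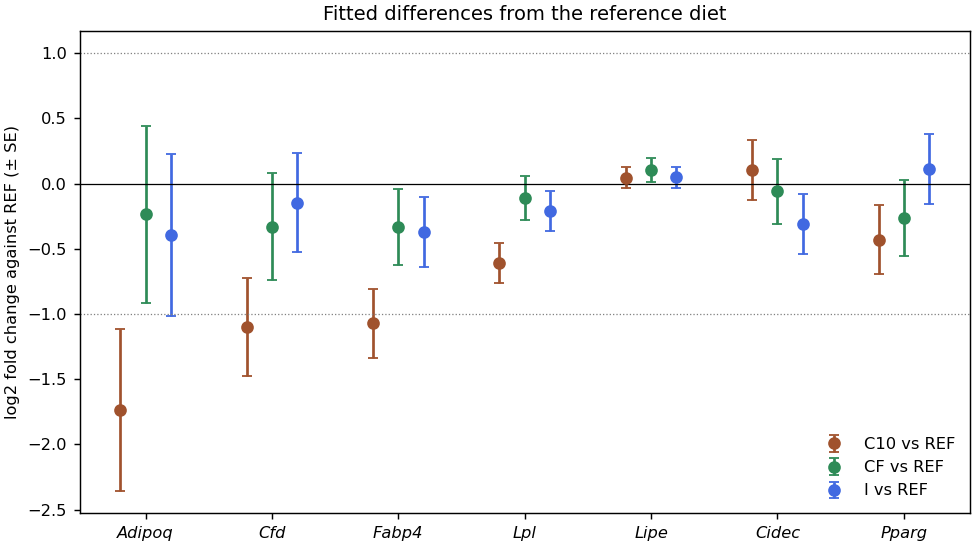
Fitted log2 fold change against REF of the 7 tested adipocyte genes, with its SE, for C10 (brown), CF (green) and I (blue), 4 rats per diet; dotted lines mark a 2-fold difference. For Adipoq in CF, Cfd in CF and I and Pparg in I, the plain means differ from REF in the opposite direction. The brown points of Adipoq (-1.74), Cfd (-1.10) and Fabp4 (-1.07) lie beyond 2-fold, while those of Lipe and Cidec lie near 0.

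Because each array held rats of 2 diets, the genes could also be compared within arrays. Adipoq, Fabp4, Cfd and Lpl were each lower in the C10 rat than in its REF or CF partner on 4 of the 4 arrays that held one, as were 7.79 % of all genes. Fabp4 and Cfd pointed the same way as Adipoq between the rats of 8 of 8 arrays, which 0.608 % of the other genes did, and Lpl and Cidec on 7 arrays, which 4.41 % of genes reached or passed. Lipe and Pparg did so on 5 of 8.

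Whether the members rose and fell together from rat to rat was examined over the 21 pairs of the 7 tested genes, with the mean of each dye removed. In 6 pairs, those among Adipoq, Fabp4, Cfd and Lpl, the correlation passed the permutation test after adjustment over the 21 pairs, with both coefficients. Adipoq and Fabp4 gave r = 0.96 over 16 rats (rho = 0.95; both permutation p = 1e-05, the smallest that 100000 resamples give, adjusted p = 7e-05). Without C10 rats 1 and 2, which lie farthest from the median of Adipoq, r was 0.95. It was 0.92 on arrays 1 to 4 and 0.995 on arrays 5 to 8, with 8 rats in each set. Adipoq and Cfd gave r = 0.94 (rho = 0.91; both permutation p = 1e-05, adjusted 7e-05), 0.93 without the same rats, 0.97 on arrays 1 to 4 and 0.94 on arrays 5 to 8. These 3 genes thus placed the rats in nearly the same order.

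Fabp4 and Cfd correlated at r = 0.87 (rho = 0.87; both permutation p = 1e-05, adjusted 7e-05), and at 0.84 without C10 rat 2 and REF rat 3. Lpl followed less closely, at r = 0.79 with Adipoq (rho = 0.77; permutation p = 0.00027 and 0.00094, adjusted 0.00113 and 0.00329), 0.84 with Fabp4 (rho = 0.87; permutation p = 5e-05 and 3e-05, adjusted 0.000263 and 0.000158) and 0.72 with Cfd (rho = 0.77; permutation p = 0.00152 and 0.00063, adjusted 0.00532 and 0.00265). Without the 2 rats farthest from the median of the first gene, these were 0.74, 0.77 and 0.68. They were 0.79, 0.87 and 0.67 on arrays 1 to 4 and 0.81, 0.85 and 0.89 on arrays 5 to 8. The permutation treats the 16 rats as separate, although 2 share each array; over the 8 log-ratios within arrays, r was 0.97 for Adipoq with Fabp4, 0.96 with Cfd and 0.84 with Lpl.

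The other 15 pairs did not pass, with r from -0.37 to 0.53 and adjusted permutation p from 0.102 up. Lipe came nearest, at r = 0.53 with Adipoq (rho = 0.56; permutation p = 0.034 and 0.0255, adjusted 0.102 and 0.0765), falling to 0.37 without C10 rats 1 and 2. Pparg was at r = -0.04 with Adipoq (rho = -0.05; permutation p = 0.879 and 0.856, adjusted 0.957 and 0.956). Cidec was at r = -0.36 (rho = -0.31; permutation p = 0.169 and 0.244, adjusted 0.296 and 0.42), and at 0.05 without C10 rats 1 and 2. The mean over all 21 pairs was 0.28. Among Adipoq, Fabp4, Cfd and Lpl alone, a set named after the values were seen, the mean was 0.85, and 0.82 to 0.90 under 26 other settings and left-out rats.

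The genes moved together also among rats of the same diet. With the mean of each diet subtracted, r with Adipoq was 0.96 for Fabp4, 0.93 for Cfd, 0.70 for Lpl and 0.66 for Lipe, against -0.22 for Pparg and -0.29 for Cidec. Within REF, rat 3 was highest and rat 2 lowest in Adipoq, Fabp4, Cfd and Lpl alike, and within CF rat 4 was lowest in all 4 genes. Within C10, Lpl departed from the other genes. Rat 4 was highest there in Adipoq, Fabp4 and Cfd (9.07, 9.11 and 11.20) but not in Lpl (6.84, against 7.05 in rat 3). The study reports that the cocoa-fed rats ended lighter than the other groups, with no weight change from the CF or I diets. Neither the weight of single rats nor the amount of fat on each piece of colon is given in the sources used here. The part of either in these values was not tested.

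**Figure D3:**
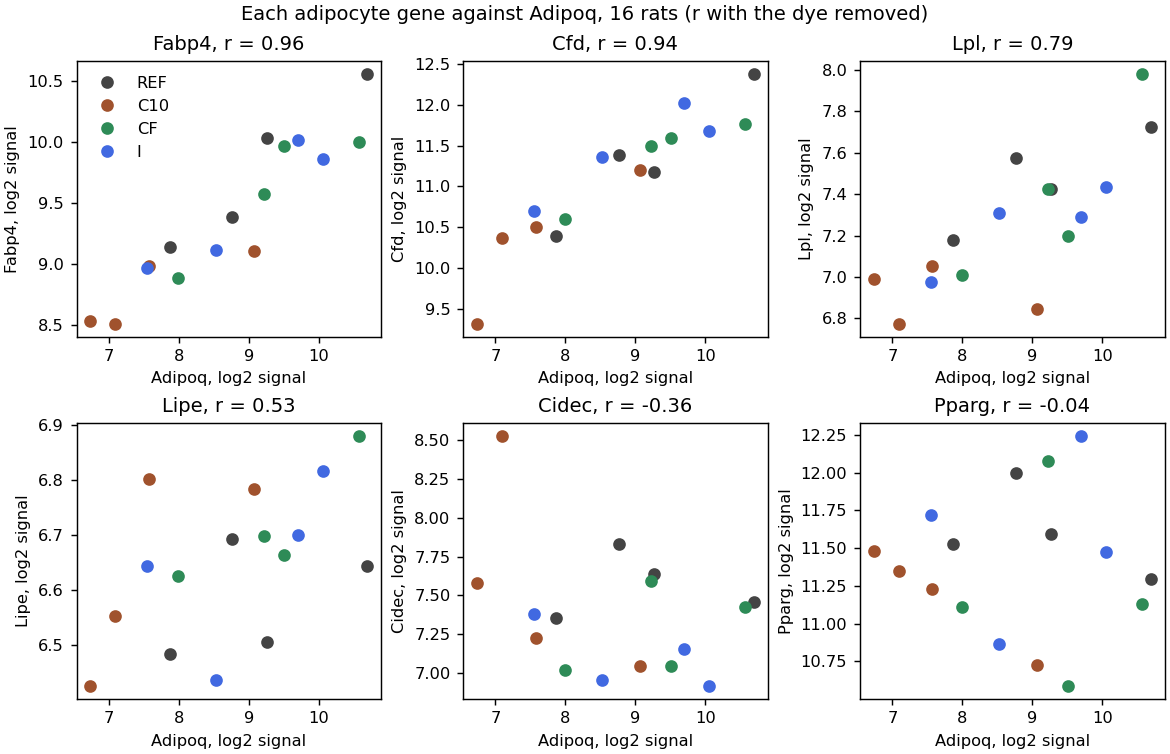
Normalized log2 signal of 6 adipocyte genes (vertical axes) against that of Adipoq (horizontal axes) in the 16 rats, coloured by diet; r above each panel is with the dye removed. Fabp4 (r = 0.96) and Cfd (r = 0.94) rise with Adipoq, while Cidec (r = -0.36) and Pparg (r = -0.04) do not.

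Among the 19900 other genes, 25 (0.126 %) had r of at least 0.8 with Adipoq over the 16 rats, and Fabp4 and Cfd ranked 4 and 6. The 10 highest named genes outside the list were Rbp4, the carrier of retinol (r = 0.96), Thrsp, a regulator of fatty acid synthesis (0.96), Car3, a carbonic anhydrase abundant in fat (0.96), Scd, the stearoyl-CoA desaturase (0.95), Mrap, the accessory protein of the melanocortin 2 receptor (0.94), Nat8l (0.93), Mst1 (0.91), Agt, the precursor of angiotensin (0.89), S100b (0.88) and Slc7a10, an amino acid transporter (0.86). Lpl ranked 28, Lipe 695, Pparg 10647 and Cidec 16928. These r describe 16 rats, of which 2 share each array, and carry no test.

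The signals of these genes show the same rats. Rbp4 was at 10.99, 10.05, 12.02 and 10.28 in REF rats 1 to 4, 9.32, 9.65, 9.36 and 10.56 in C10 rats, 12.06, 10.55, 10.60 and 10.10 in CF rats, and 10.06, 11.17, 11.59 and 9.83 in I rats. Scd was at 12.02, 9.51, 12.92 and 9.78 in REF rats 1 to 4, 8.87, 9.14, 9.92 and 10.58 in C10 rats, 12.94, 11.24, 11.95 and 9.33 in CF rats, and 10.71, 11.72, 12.25 and 8.57 in I rats. REF rat 3 and CF rat 1 were the highest for both and for Adipoq. In C10 against REF, Scd differed by -1.78 (SE 0.77; limma, adjusted p = 0.238), Thrsp by -1.26 (SE 0.60, 0.281) and Rbp4 by -1.20 (SE 0.46, 0.191), none of them called. The named genes least like Adipoq were Rnf145 (r = -0.87), Abhd6 (-0.83) and Terf2ip (-0.83), which differed between C10 and REF by 0.41 (adjusted p = 0.0566), 0.14 (0.462) and 0.21 (0.0796) by limma. Rbp4, Thrsp, Car3, Mrap and the desaturase are also in the study's list of genes lower after cocoa.

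**Figure D4:**
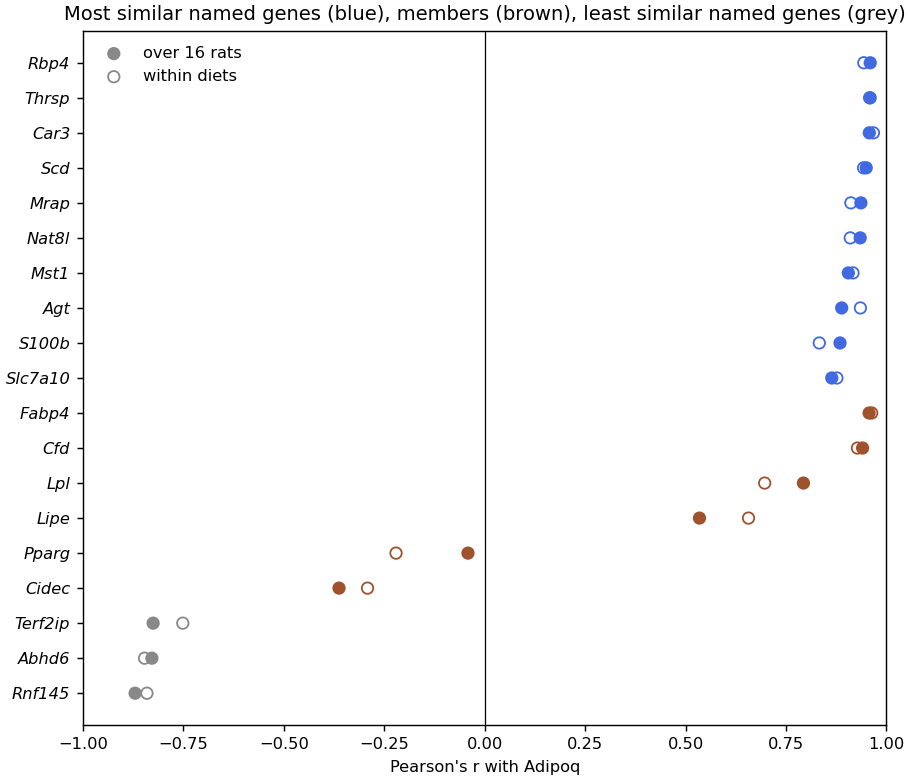
Pearson's r with Adipoq of the 10 most similar named genes (blue), the other 6 tested members (brown) and the 3 least similar named genes (grey), over 16 rats (filled) and after subtracting diet means (open). Fabp4 and Cfd lie with the blue genes, whose filled points run from 0.86 to 0.96, while Pparg and Cidec lie below 0.

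A further list of 40 genes of adipocytes and fat metabolism, many of them also active in the epithelium and other tissues, was set beside the members. Of its 36 tested genes, 24 were lower and 12 higher in C10 than in REF, with a median of -0.11 against -0.61 for the members and 0.01 for all genes, of which 46.1 % were lower. Limma called 1 lower and 1 higher, as against 0.226 % of all genes in either direction. Me1, the malic enzyme that supplies NADPH for fatty acid synthesis, fell by 1.33 on the log2 scale (SE 0.17, adjusted p = 0.00313) and also differed from I (-1.01, SE 0.19, adjusted p = 0.0301), a call that leaving out any one of 9 rats ended (REF rats 2 and 3, C10 rats 2 and 4, CF rats 1, 2 and 4 or I rats 2 and 3; -0.84 to -1.002). It was at 12.13, 11.73, 12.11 and 11.86 in REF rats 1 to 4 and at 10.35, 10.86, 11.37 and 10.18 in C10 rats, without overlap. Its r with Adipoq was 0.61, and 0.38 within diets. Angptl4, an inhibitor of lipoprotein lipase, rose by 1.33 (SE 0.28, adjusted p = 0.0381), from 7.93, 7.15, 8.57 and 7.13 in REF rats to 9.28, 9.36, 8.40 and 8.64 in C10 rats, and its r with Adipoq was -0.04. Leaving out any one of 9 rats (REF rats 1, 2 and 4, C10 rats 1, 2 and 4 or I rats 2, 3 and 4) ended this call, with log2 values of 1.06 to 1.36 and adjusted p of 0.0505 to 0.2. Angptl4 was also higher than REF in CF (1.08, SE 0.30; limma, adjusted p = 0.58) and in I (0.79, SE 0.28, 0.719), neither of them called. Its C10 against CF difference was 0.25 (SE 0.28; limma, adjusted p = 0.736). In C10 against REF, G0s2, an inhibitor of adipose triglyceride lipase, fell by 0.89 (SE 0.11, adjusted p = 0.0029), below 2-fold. In C10 against CF, G0s2 differed by -0.77 (SE 0.11; limma, adjusted p = 0.0122) and Me1 by -0.83 (SE 0.17, 0.0479), both below 2-fold. The r of G0s2 with Adipoq was 0.54, and 0.08 within diets. Me1 and Angptl4 are among the genes that the study listed from these arrays. In this list, 7 of 36 genes (Thrsp, Fasn, Scd, Rbp4, Mest, Car3 and Mrap) had r of at least 0.8 with Adipoq, and 16 had r below 0.2, among them the C/EBP factors Cebpa (-0.15), Cebpb (0.12) and Cebpd (0.00).

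Markers of other cells were compared with the members by the mean log2 signal of each list, of which 10 were used. None of their 80 tested genes was called by limma in C10 against REF, as against 0.226 % of all genes. An unadjusted p below 0.05 was found for 22, as for 18.4 % of all genes. None had r of at least 0.8 with Adipoq, which 0.126 % of all genes had, the highest being Gpihbp1 (0.79). With shares of called and correlated genes this small, finding none among 80 says little. Of 10 brown adipocyte genes, 4 were tested, and their level had r = 0.05 with Adipoq and 0.35 within diets. Among them, Cox8b and Ebf2 were well above background in only 7 and 8 rats. The probe of Ucp1, the uncoupling protein that defines brown fat, did not pass the filter. The mesothelium covers the outer side of the gut and its fat. Its 8 genes, led by Msln (-1.13, SE 0.57, adjusted p = 0.32 in C10 against REF), had a level of 7.36 to 7.99 in REF and 6.63 to 7.83 in C10, with r = 0.44 with Adipoq and 0.18 within diets. The level of 9 macrophage genes was 10.15 to 10.66 in REF, 9.66 to 10.41 in C10, 10.33 to 10.74 in CF and 10.43 to 10.72 in I, with r = 0.61 with Adipoq and 0.38 within diets. Against REF, these levels were thus lower in some C10 rats too, with ranges that overlapped. The macrophage level of the highest C10 rat (10.41) lay just below that of the lowest I rat (10.43). The share of all genes without overlap in C10 against I was not computed, so nothing is read from this. Against CF, 9 of 9 macrophage genes were lower in C10 (median -0.57), as were 8 of 8 mesothelial genes (-0.34) and 48.9 % of all genes. None of these macrophage and mesothelial genes was called, although Adgre1 in macrophages had a limma adjusted p = 0.0471 at -0.82, below 2-fold. At an unadjusted p below 0.05, 6 macrophage and 7 mesothelial genes were lower in C10 than in CF, where 14.4 % of all genes passed in either direction. Of 9 fibroblast genes, 8 were lower in C10 than in CF (median -0.52), 6 of them at an unadjusted p below 0.05 and none called. The part of these levels in the differences of the adipocyte genes was not tested.

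Smooth muscle showed 10 of 10 genes lower in C10 than in REF, with a median of -0.78, led by Cnn1 (-1.28, SE 0.46, adjusted p = 0.161) and Actg2 (-1.20, adjusted p = 0.15), none of them called. Its level was 13.67 to 14.09 in REF and 11.61 to 13.88 in C10, the lowest in C10 rat 1, with the next lowest C10 rat at 13.73. The r with Adipoq was 0.42 for smooth muscle, 0.34 for fibroblasts, 0.48 for striated muscle, 0.21 for endothelium, 0.24 for B cells and -0.48 for the colon epithelium. Within diets these were 0.22, 0.02, 0.21, 0.10, 0.29 and -0.49. Beside the genes named above, genes of these lists with the larger C10 against REF differences, none of them called, were Des in smooth muscle (-0.97), Gpihbp1 and Kdr in the endothelium (-0.36 and 0.27), Upk1b and Calb2 in the mesothelium (-1.01 and -0.54), Dcn and Pi16 in fibroblasts (-0.64 and -0.57), Adgre1 and C1qb in macrophages (-0.67 and -0.52), Ckm in striated muscle (-0.93), Cd79b and Cr2 in B cells (0.76 and 0.70), and Cdx2 and Lgals4 in the epithelium (-0.37 and 0.26). Of the 6 posterior Hox genes tested, 5 were higher and 1 lower in C10 than in REF, none of them called. The largest differences were those of Hoxb13 (2.78, SE 1.36) and Hoxd13 (0.997, SE 0.43), and the lower gene was Hoxa11 (-0.78, SE 0.29). The level of the 6 genes, taken here as markers of position along the gut, gave r = 0.01, and 0.39 within diets. Whether it follows position in these pieces was not tested. Hoxb13 had the widest spread of the 6 (SD within diets 2.31), and Hoxd12 was well above background in only 6 rats. Hoxb13, Hoxd10 and Hoxd13 are also in the study's list of genes higher after cocoa, from these same arrays. The level of the further adipocyte list gave r = 0.91, and 0.91 within diets. Genes with a wide spread, such as Scd (SD within diets 1.49) and Thrsp (1.18), weigh most in such a mean. Of the 36 genes of that list, 16 had r below 0.2. The list was also drawn up with earlier results of these data known, so its r is no independent evidence.

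**Figure D5:**
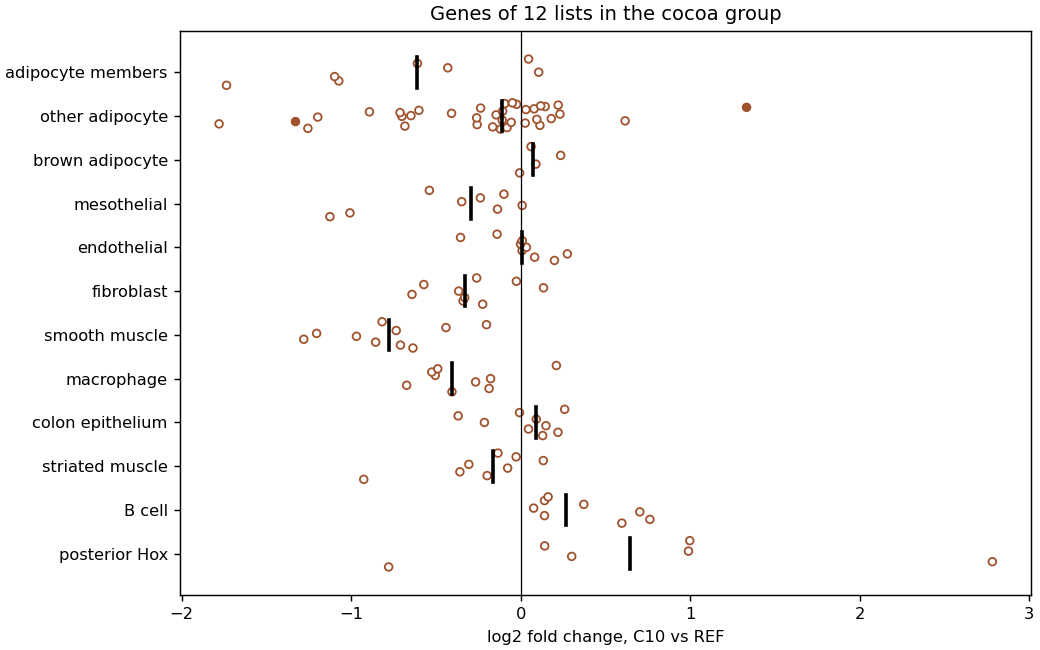
Log2 fold change in C10 against REF (horizontal axis) of each tested gene of the 12 lists, with the median of each list as a black bar; filled points were called by limma. The members' median lies at -0.61 and that of smooth muscle at -0.78, and only Me1 and Angptl4 are filled.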

How the data were processed

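RNA from 16 colon samples was amplified, labelled and hybridised on 8 two-colour arrays. The authors extracted the data from the scanned arrays with Agilent Feature Extraction 10.7.3.1. They deposited unnormalized median intensities per dye, for every spot and the background around it. A deposited normalized table was not used, because its 8 columns match no label. The output also holds processed intensities, used as an alternative.

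Intensities were corrected with limma 3.58.1 in R 4.3.3 (normexp, offset 50), followed by spatial loess (span 0.4), intensity loess (span 0.3) and Aquantile normalization. The methods name these steps without the offset and spans, which were chosen here; the offset narrows differences of dim genes. No depth exists for arrays, and the number of rats limits the precision. Between 68.64 and 83.9 % of spots per rat exceeded the background clearly, and 0 spots were saturated. Log2 signals of each dye were averaged per probe. Those not well above background in at least 4 rats were left out, and each gene was represented by its brightest probe. Of 19109 probes with an mRNA accession, 17935 matched a current symbol in the RefSeq table (GRCr8). Limma was fitted to all 16 rats, with diet and dye as terms and the array as block (correlation 0.476), and p-values were adjusted by Benjamini-Hochberg over all genes. Calls needed an adjusted p below 0.05 and a 2-fold difference. Single genes were also tested by an exact two-sided permutation of 4 rats against 4, and pairs of genes by 100000 resamples (Python 3.11.15, scipy 1.17.1). Rank product, used in the study, was not run. The scripts were tested on simulated data.

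The members, gene lists and tests were chosen with earlier results of these data known. Genes were named by a rule: all members, list genes that were called, the 10 genes most like Adipoq and the 3 least like it (both among genes with a symbol), and the list genes with the largest C10 against REF differences, up to 3 in a direction per list, of which the text gives the leading ones and not all. Alternatives were 10 other settings and leaving out each of the 16 rats.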

Additional observations from a re-analysis of the deposited data

How the results depend on the processing

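The 7 tested members kept their side of the threshold in all comparisons under the 26 alternatives, except Fabp4, which was called in C10 against REF without normalization between arrays (-1.10, adjusted p = 0.0322) and without C10 rat 4 (-1.24, adjusted p = 0.0453), by limma. Lpl, below 2-fold, had an adjusted p of 0.0351 without normalization between arrays and 0.0423 without CF rat 1. Of the 910 member values recomputed, 35 changed sign, of which 2 were in C10 against REF (both of Cidec). The members' median in C10 against REF, -0.61, was -0.99 with no offset and -1.12 from the processed signals, where Lpl was at -0.99 and -1.20; the offset draws dim signals together by its construction. The mean pairwise correlation of 0.28 was 0.41 with array means subtracted. Cidec changed sign in CF against REF without normalization between arrays (0.074) and in log-ratios within arrays (0.21), and in C10 against CF in log-ratios (-0.012). Lipe did so in C10 against I without normalization between arrays (0.0043), with quantile normalization (0.011), with the array set as a term (0.0068) and in log-ratios (0.0068). With 1 rat left out, Cidec ran from -0.31 to 0.26 in C10 against REF, -0.22 to 0.12 in CF against REF and -0.092 to 0.42 in C10 against CF. In the same way, Adipoq ran from -0.86 to 0.32 in CF and -0.76 to 0.20 in I against REF, Lpl from -0.30 to 0.056 in CF against REF, Cfd from -0.41 to 0.27 and Lipe from -0.029 to 0.10 in I against REF, and Lipe from -0.074 to 0.066 in C10 against I. Pparg ran from -0.053 to 0.40 in I against REF and -0.32 to 0.23 in C10 against CF.

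The number of all genes called in C10 against REF, 45, was 75 with no offset, 83 from processed signals, 71 without normalization between arrays, 22 without the dye term, 0 in log-ratios, and 29, 17 and 25 without REF rats 1, 2 and 4. It was 0.538 % of the genes tested without REF rat 3, against 0.226 %. In C10 against CF the number was 24, with 40 from processed signals, 10 without the dye term, 0 in log-ratios, 0 without CF rat 1 or CF rat 2, 1 without C10 rat 3, 12 without C10 rat 4, and 38 and 37 without C10 rats 1 and 2. In C10 against I it was 34, with 69 from processed signals, 60 with no offset, 18 with the array set as a term, 0 in log-ratios, 14 and 21 without I rat 2 and CF rat 1, and 60 without C10 rat 1. By limma, the call of Me1 in C10 against REF was lost without the dye term (adjusted p = 0.06) and in log-ratios (0.189), and that of Angptl4 without the dye term (0.0723), with the array set as a term (0.0573) and in log-ratios (0.265). The call of Me1 in C10 against I was lost with quantile normalization (-0.994, below 2-fold), without the dye term (0.235), with the array set as a term (0.067) and in log-ratios (0.518). The cause of these differences was not tested. The labels give no replicate numbers to pair rats by, but the arrays pair rats of 2 diets; the log-ratios within arrays are this paired fit. The lowest signal well above background, 5.83 to 6.21, limits the measurement of Lep, and values of Lipe and Lpl lie close above it.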

Other observations

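Some genes followed Adipoq from rat to rat while their C10 against REF difference, like that of Adipoq, did not pass the test. Retn, which encodes the adipocyte hormone resistin, had r = 0.92 with Adipoq within diets and 0.77 over all 16 rats, and differed between C10 and REF by -0.12 on the log2 scale (SE 0.56; limma, adjusted p = 0.937). The fatty acid synthesis genes Fasn and Acaca had r = 0.85 and 0.84 within diets, with C10 against REF differences of -0.26 (SE 0.22, adjusted p = 0.581) and 0.03 (SE 0.11, adjusted p = 0.932) by limma. Me1 and G0s2, whose limma adjusted p in C10 against REF was 0.00313 and 0.0029, had r = 0.38 and 0.08 within diets. These genes were picked after their values were seen.

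Gpihbp1, which anchors lipoprotein lipase on the capillary wall, had r = 0.79 with Adipoq and a C10 against REF difference of -0.36 (limma, adjusted p = 0.0757), whereas the level of the endothelial list to which it belongs had r = 0.21.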
